A study of Mus musculus with 13 samples.

Results

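This section describes 2140 of the 5551 peaks of the homeodomain transcription factor Nkx2.2, mapped with ChIP-seq, the sequencing of immunoprecipitated chromatin, in ventral neural progenitors grown from mouse embryonic stem (ES) cells. These peaks were chosen by 2 measured features. They shared no base with a peak of Nkx6.1 or Olig2, which held for 3867 Nkx2.2 peaks, and their mean coverage in the third block of the Nkx2.2 coverage table was below 1.5 units within 250 bp of the centre. They are called low-block-3 peaks here and made up 38.6% of the Nkx2.2 list. The other 1727 Nkx2.2-only peaks, at 1.5 units or more, are called raised-block-3 peaks. The remaining 1684 Nkx2.2 peaks shared at least 1 base with Nkx6.1 or Olig2.

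Nkx2.2 is switched on by strong Sonic hedgehog signalling next to the floor plate of the neural tube. It acts largely as a repressor, working with Groucho-type co-repressors, and keeps the genes of neighbouring progenitor domains off in the cells that will form the most ventral interneurons. Nkx6.1, also a homeodomain factor, and Olig2, a basic helix-loop-helix factor of motor neuron and oligodendrocyte progenitors, are active in overlapping or adjacent ventral domains. Gli3 is a zinc finger factor of the hedgehog pathway that acts mainly as a repressor when the signal is absent.

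Both Nkx2.2 ChIP libraries came from the Rosa26-Gli1FLAG line, a YFP3.1 derivative whose mixed background combines C57BL6/J with 129 Sv and with Swiss Webster. Nkx6.1 and Olig2 were each profiled once in YFP3.1 cells and once in the Rosa26-Gli1FLAG line. All of these ventral cultures spent 2 days in suspension and 3 days with 500 nM retinoic acid and 160 to 800 nM Smoothened agonist, a compound that turns on hedgehog signalling. Gli3 was profiled in 1 library of V6.5 derived cells (C57BL/6 X 129/sv) that carry a 3xFLAG-Avi tag at the Gli3 start codon, cultured with retinoic acid and no agonist and labelled dorsal. Factor, line and culture therefore cannot be told apart in any comparison with Gli3. Of the 13 libraries described, 6 were inputs, which are sequenced chromatin without precipitation. There was 1 peak list per factor, every peak was 300 bp wide, and read depth is unknown. Intervals given below are 95% intervals that cover counting error over peaks, not variation between cultures.

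The 3 blocks of the coverage table carry no library names, so they are given by number and are not taken as replicates. Their units are the deposited ones, and the smallest value above 0 was 0.581 in block 1, with 0.488 for block 2 and 0.245 for block 3. Block 3 chose the peaks, so its values are a description only. Over the low-block-3 peaks it ran from 0 to 1.49 units with a median of 0.839, against 2.201 units over the raised-block-3 peaks and 1.20 over all Nkx2.2 peaks. The threshold cuts a continuous distribution: 701 Nkx2.2-only peaks lay within 0.25 units of it, 52.2% of them below. The 3 peaks just inside, at chr9:107470887-107471186, chr6:88791760-88792059 and chr14:8935997-8936296, each had 1.49 units in block 3. The 3 just outside, at chr14:56209874-56210173, chr16:93140758-93141057 and chr2:167510659-167510958, each had 1.502 units. Positions are on the mouse build mm9, and the genes and sequences at them were not analysed here.

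Low did not mean flat in block 3. The mean profile of the low-block-3 peaks reached 0.974 units at the centre, 1.55 times its level of 0.629 units between 1000 and 1500 bp. The raised-block-3 peaks reached 2.83 units, 3.87 times their level of 0.730. Block 3 within 250 bp exceeded 2 times the outermost flank (the last 250 bp on each side) at 813 of the low-block-3 peaks, or 37.99%, and at 1510 of the raised-block-3 peaks, or 87.4%. Over all Nkx2.2 peaks this share was 56.6%, and since the rule used block 3 nothing is read from the difference.

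Blocks 1 and 2, which the rule did not use, both peaked sharply at the centres of the low-block-3 peaks. The list holds called peaks, and the sources used here do not say which blocks took part in the calling. A rise at the centres can follow from that calling, so it is a description and no separate support. Block 1 coverage within 250 bp averaged 22.6 ± 22.4 units (SD over 2140 peaks), with a median of 17.8 (interval 17.5 to 18.3), and ran from 4.95 to 489.2 units. Block 2 averaged 5.73 ± 5.58 units, with a median of 4.20 (3.99 to 4.37) and a range of 0 to 75.5 units. Coverage was over 2 times the outermost flank at 2117 of the 2140 peaks in block 1 (98.9%) and at 1974 in block 2 (92.2%). Over all Nkx2.2 peaks these shares were 99.1% and 94.9%, so the low-block-3 peaks were near the list as a whole in this respect. The mean profile rose 43.9-fold over its level at 1000 to 1500 bp in block 1 and 13.1-fold in block 2. At 50% of its height above that level it was 191.6 bp wide in block 1 and 286.5 bp in block 2, and the highest point lay at the centre in both.

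**Figure D1:**
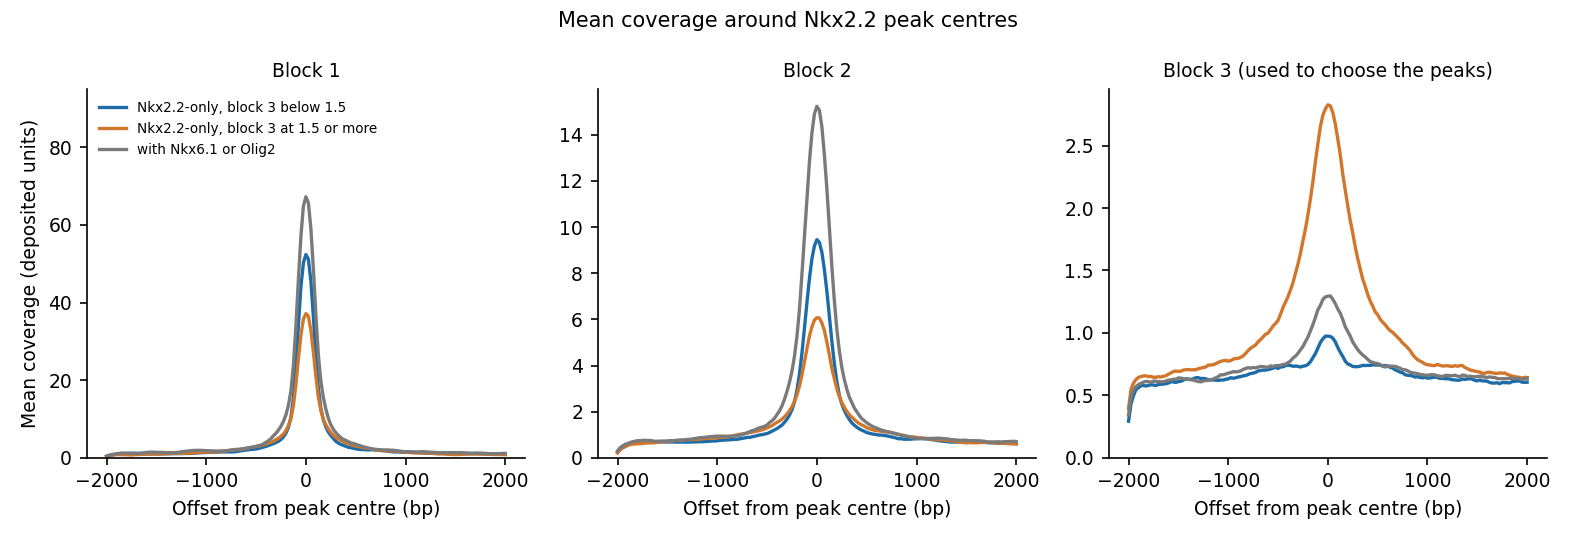
Mean coverage (deposited units, y axis) against offset from the peak centre (bp, x axis) in blocks 1, 2 and 3 for low-block-3 peaks (blue, 2140), raised-block-3 peaks (orange, 1727) and Nkx2.2 peaks with Nkx6.1 or Olig2 (grey, 1684). At the centre the blue curve lies between the orange and the grey in blocks 1 and 2, and in block 3, which chose the peaks, it reaches 0.974 units against 2.83 for orange.

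Low-block-3 peaks had higher median coverage in both of these blocks than raised-block-3 peaks, and lower coverage than peaks shared with Nkx6.1 or Olig2. The median in block 1 was 17.8 units, against 15.9 (15.7 to 16.3) at raised-block-3 peaks and 23.6 (22.9 to 24.2) at shared peaks. The median in block 2 was 4.20 units, against 3.67 (3.599 to 3.761) at raised-block-3 peaks and 6.94 (6.59 to 7.34) at shared peaks. Over all 5551 peaks the medians were 18.4 and 4.43 units. The difference was not uniform inside the classes. Low-block-3 peaks below 0.5 units in block 3 had medians of 18.04 and 4.60 units, and those from 0.5 to 1 had 18.9 and 4.50. Those from 1 to 1.5 had only 16.4 and 3.62 units. Raised-block-3 peaks from 1.5 to 2 units had 15.0 and 3.46, and those at 3 or more had 16.8 and 3.99. On the log2(coverage + 1) scale the medians of low-block-3 peaks exceeded those of raised-block-3 peaks by 0.16 (0.10 to 0.21) in block 1 and 0.16 (0.07 to 0.22) in block 2. Measured within 100 bp of the centre, for the rule and the values alike, these differences were 0.29 and 0.33, and the block 1 median was 31.9 units. No p-value was computed, as peaks are not replicates of a condition.

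The gap was widest in the upper part of the distributions. The 95th percentile of block 1 was 48.5 units at low-block-3 peaks and 32.96 at raised-block-3 peaks, while the 5th percentile was 8.91 and 9.00 units. In block 2 the 95th percentile was 15.6 units at low-block-3 peaks and 8.55 at raised-block-3 peaks, and the 5th percentile was 1.04 and 1.49 units. Low-block-3 peaks therefore spread wider in block 2, to both higher and lower values, and the middle ranges of the classes overlapped in both blocks. The profiles of raised-block-3 peaks were broader: at 50% of the height low-block-3 profiles measured 191.6 bp and raised-block-3 profiles 208.2 bp in block 1, and in block 2 the widths were 286.5 and 333.1 bp. The highest point within 500 bp lay within 75 bp of the centre at 92.6% of low-block-3 peaks and 85.6% of raised-block-3 peaks in block 1, and at 70.8% and 60.9% in block 2.

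**Figure D2:**
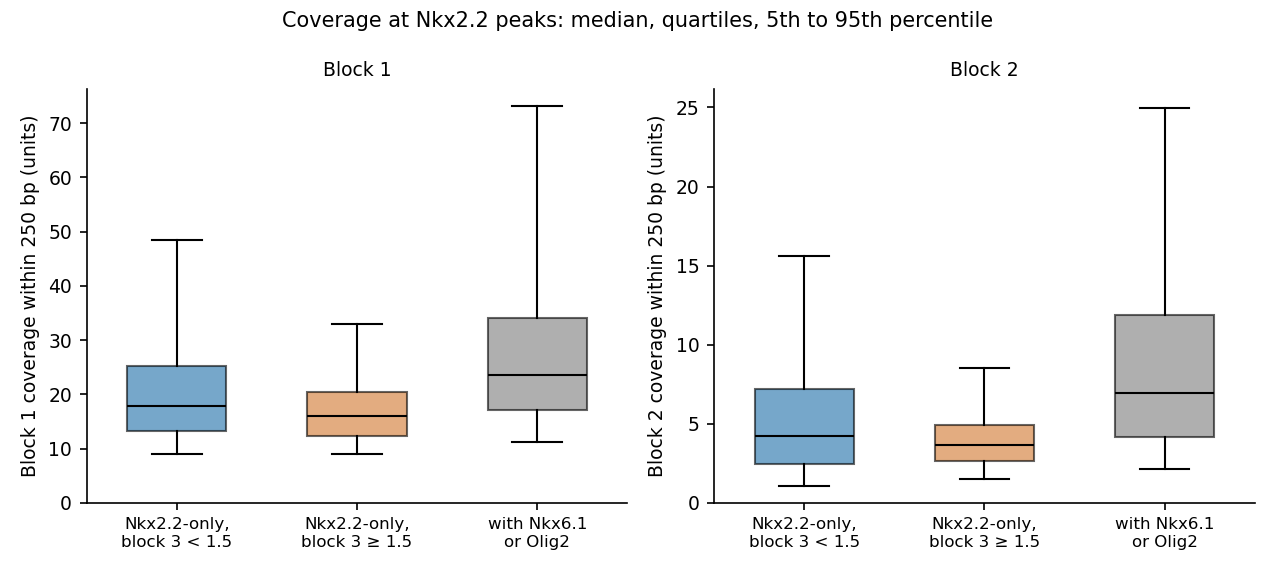
Coverage within 250 bp of the centre (deposited units, y axis) in block 1 and block 2 for low-block-3, raised-block-3 and shared Nkx2.2 peaks (x axis). Lines are medians, boxes quartiles, and whiskers the 5th and 95th percentiles, and the medians of low-block-3 peaks (17.8 and 4.20 units) lie between those of the other classes.

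The deposited order of the peak list followed block 1. Among low-block-3 peaks the rank correlation of list line with coverage was -0.84 in block 1 and -0.49 in block 2, a description over 2140 peaks of 1 table. By successive 25% of the list the share of low-block-3 peaks was 40.7%, 42%, 38.5% and 33%. That of raised-block-3 peaks was 14.05%, 23.85%, 37.06% and 49.5%. The sources used here do not say whether block 3 took part in calling or ordering the peaks. Blocks 1 and 2 had a rank correlation of 0.60 over the low-block-3 peaks. Their correlations with block 3 were -0.10 for block 1 and -0.11 for block 2 within the class, whose range in block 3 is narrow by construction. Within the raised-block-3 peaks these correlations were 0.09 and 0.12.

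By the geometric mean of blocks 1 and 2, the 3 strongest low-block-3 peaks stood apart in block 1 from the next 3, while in block 2 the 6 peaks showed no such gap. The peak at chr1:120810604-120810903 had 489.2 units in block 1 and 75.5 in block 2, with 0.897 for block 3, and an Olig2 peak lay 2.46 kb and a Gli3 peak 2849 bp from it. A pair of overlapping peaks with centres 0.142 kb apart followed. The one at chr10:92697106-92697405 had 458.4 units in block 1 and 59.3 in block 2, with 1.32 for block 3, and the one at chr10:92696964-92697263 had 423.6, 55.9 and 1.44 units. Being overlapping, these 2 share most of their coverage, and their nearest Nkx6.1 peak was 401.7 kb away or more. The next were chr3:29699799-29700098 (131.7 units in block 1 and 51.3 in block 2), chr2:105514651-105514950 (31.04 units in block 2) and chr16:41551244-41551543 (42.1 units in block 2), both over 100 units in block 1. None of these 6 overlapped a Gli3 peak, but only 3.69% of all low-block-3 peaks did, so nothing is read from this. The chromosome 2 peak had a Nkx6.1 peak 3.43 kb away, while the chromosome 16 peak had its nearest Olig2 peak at 269.2 kb.

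Block 1 exceeded block 2 by a median of 4.47 times over the low-block-3 peaks (quartiles 2.99 and 6.75) and 4.45 times over raised-block-3 peaks (3.43 and 5.88), a ratio of unlike scales that only ranks peaks. Some low-block-3 peaks departed far from it. At chr2:145144654-145144953 block 1 had 8.66 units and block 2 0.0464, at chr11:25000028-25000327 they had 31.2 and 0.302 units, and at chr15:78211155-78211454 20.7 and 0.209 units. The chromosome 11 peak stood on line 310 of the list and yet was below its flank of 0.488 units in block 2. At the other end, block 2 exceeded block 1 at 11 low-block-3 peaks, or 0.514%, which is close to the 0.558% of all Nkx2.2 peaks. The share was 0.116% at raised-block-3 peaks (2 peaks) and 1.07% at shared peaks (18 peaks). The 11 were led by chr7:145797722-145798021 (11.4 units in block 1 and 18.9 in block 2), chr8:117246377-117246676 (10.9 and 16.1 units) and chr1:57904633-57904932 (11.6 and 15.9 units). In block 2, 7.76% of low-block-3 peaks were not over 2 times their flank, and 1 had no coverage within 250 bp. The share not over 2 times the flank was 5.13% over all Nkx2.2 peaks, 4.52% at raised-block-3 peaks and 2.435% at shared peaks.

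The Olig2 and Nkx6.1 coverage tables gave a second reading at some of the same places, since they extend to 2000 bp on each side of their own peaks. An Olig2 peak centre lay between 300 bp and 1.75 kb from 6.82% of low-block-3 peaks and 3.94% of raised-block-3 peaks. Block 3 of the Olig2 table, read within 250 bp of the Nkx2.2 centre, had a median of 0.833 units (0.745 to 0.882) at low-block-3 peaks and 1.80 units (1.63 to 1.96) at raised-block-3 peaks. It reached 1.5 units at 10.3% of these low-block-3 peaks (15 peaks) and at 70.6% of these raised-block-3 peaks (48 of 68). In the Nkx6.1 table, block 3 had a median of 0.735 units (0.608 to 0.843) at 70 low-block-3 peaks and 1.37 (1.18 to 1.76) at 17 raised-block-3 peaks. The rank correlation of block 3 between tables was 0.63 for Olig2, over 5.53% of the 3867 Nkx2.2-only peaks, and 0.62 for Nkx6.1, over 87 peaks. Block 3 was thus higher at raised-block-3 positions also in tables that the rule did not use, although the labels do not say whether the blocks of different tables are different libraries. The median outermost flank of block 3 was 0.431 units in both the Olig2 and the Nkx6.1 table, and an input library is labelled for both factors. Their readings may therefore not be separate, which was not tested. These peaks were limited to those near an Olig2 or Nkx6.1 peak.

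In blocks 1 and 2 of the Olig2 and Nkx6.1 tables, coverage at low-block-3 centres was above that on the opposite side, although these peaks overlap none in those lists. In the Olig2 table, the median at these low-block-3 centres was 3.36 units in block 1 and 3.41 in block 2, against 1.47 and 1.06 units at the same distance on the other side of the Olig2 peak. The Nkx2.2 side was the higher at 76.03% of the peaks in block 1 and at 82.9% in block 2. With Olig2 peaks nearer than 750 bp left out, 62 peaks gave 2.16 and 2.07 units at the Nkx2.2 centre and 0.812 and 0.561 on the other side. In the Nkx6.1 table, the median at 70 Nkx2.2 centres was 3.01 units in block 1 and 2.79 in block 2, against 1.32 and 1.04 units opposite, and the Nkx2.2 side was higher at 63 and 62 of them. The Olig2 peaks near low-block-3 peaks had medians of 15.2 and 12.3 units at their own centres. At raised-block-3 peaks the Olig2 table gave 2.56 units in block 1 and 2.77 in block 2, against 0.646 and 0.748 opposite. With Olig2 peaks nearer than 750 bp left out, raised-block-3 peaks (45) had 2.56 (1.96 to 3.01) and 2.71 units (2.245 to 3.04). Low-block-3 peaks then had 2.16 (1.405 to 3.21) and 2.07 units (1.59 to 2.83). The order of the medians turned with the distance limit, but these intervals of the classes overlap. Block 3 of the Olig2 table was also higher on the Nkx2.2 side, with 0.833 units against 0.608 opposite at low-block-3 peaks (higher at 66.4% of them) and 1.80 against 0.641 at raised-block-3 peaks (92.6%). In the Olig2 table the higher reading on that side was thus not limited to blocks 1 and 2. Block 3 of the Nkx6.1 table had 0.735 units against 0.578 opposite at low-block-3 peaks, higher at only 57.1% of the 70. At the 17 raised-block-3 peaks it had 1.37 against 0.635 units, higher at 88.2%. "Nkx2.2-only" is a statement about the lists, and coverage away from listed Olig2 and Nkx6.1 peaks cannot be read from these tables.

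**Figure D3:**
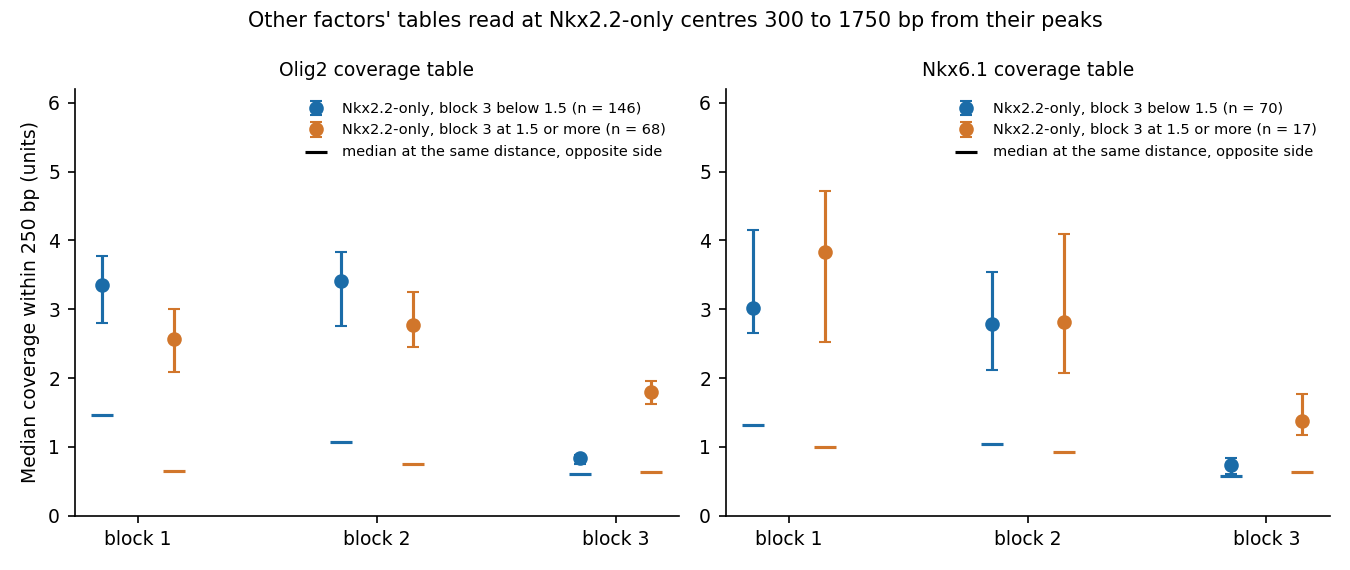
Median coverage within 250 bp (deposited units, y axis) in the 3 blocks of the Olig2 and Nkx6.1 tables (x axis), read at Nkx2.2-only centres that lie between 300 bp and 1.75 kb from a peak of that factor. Dots with 95% intervals are low-block-3 (blue) and raised-block-3 (orange) peaks, and dashes are medians at the same distance on the opposite side. In block 3 of the Olig2 table low-block-3 peaks had 0.833 units and raised-block-3 peaks 1.80.

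Gli3 was found at few low-block-3 peaks. A Gli3 peak shared at least 1 base with 79 of the 2140, or 3.69% (Wilson interval 2.97 to 4.58), while 7.91% of all Nkx2.2 peaks were overlapped by Gli3. Among raised-block-3 peaks 11.5% (10.05 to 13.05) of 1727 held Gli3, and among shared peaks 9.62% (8.30 to 11.1) of 1684. The share at low-block-3 peaks minus that at raised-block-3 peaks was -7.77 percentage points (Newcombe interval -9.52 to -6.10), and minus that at shared peaks it was -5.93 points (-7.59 to -4.34). The Gli3 list was not used to choose the peaks, but its rise with block 3 coverage was known when they were chosen. The difference was -5.02 points where low meant less than 2 times the flank in block 3, and -5.04 points where Gli3 centres had to lie within 100 bp, which 2.196% of low-block-3 peaks met.

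The Gli3 share also varied with block 3 inside the class. It was 0.462% (0.127 to 1.67) of the peaks below 0.5 units (2 peaks with Gli3), 2.47% (1.65 to 3.67) of the 933 from 0.5 to 1, and 6.98% (5.39 to 8.99) of the 774 from 1 to 1.5. From 1.5 to 2 units it was 9.57% (7.51 to 12.1), so there was no jump at the threshold. With a threshold of 1.0 in place of 1.5 the share was 1.83%. Low-block-3 peaks with Gli3 had a median of 1.17 units in block 3, against 0.827 units at those without. In block 1 they had 16.2 units (14.7 to 18.1), against 17.9 (17.5 to 18.4) without Gli3, and in block 2 3.20 units (2.74 to 3.81), against 4.23 (4.06 to 4.39).

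**Figure D4:**
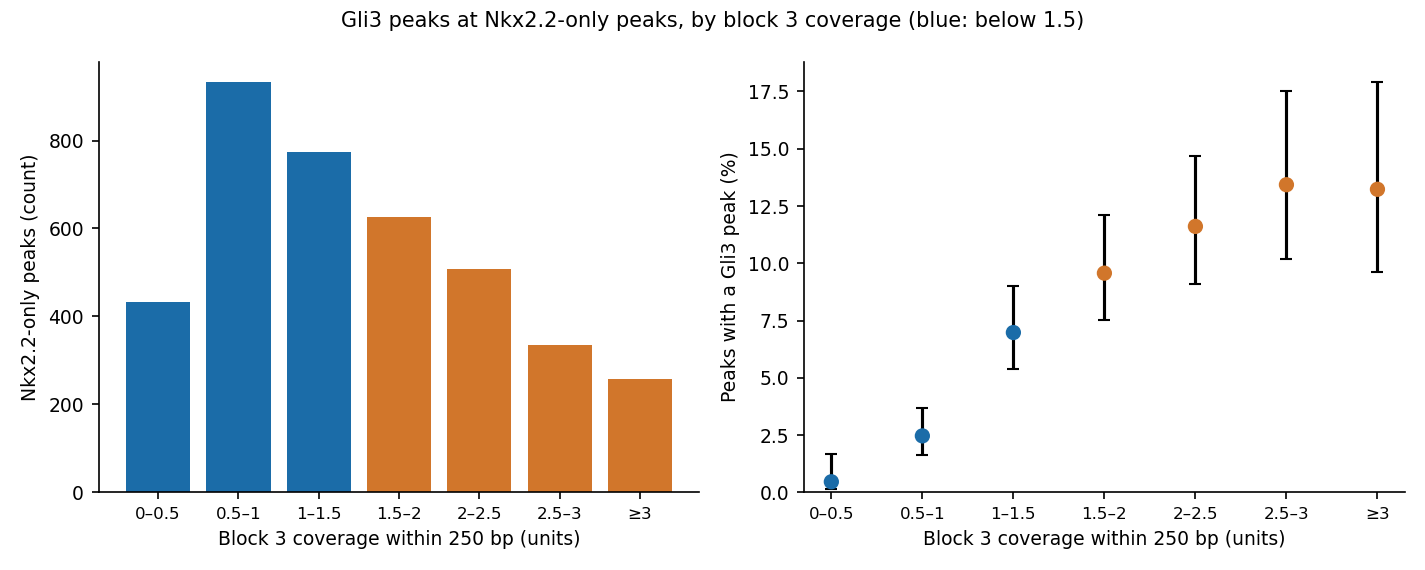
Left, number of Nkx2.2-only peaks, and right, percentage of them that share a base with a Gli3 peak (dots, with 95% Wilson intervals), by block 3 coverage within 250 bp (units, x axis). Bins below 1.5 units (blue) are the low-block-3 peaks, where the share runs from 0.462% in the lowest bin to 6.98% in the highest.

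The difference was present at each level of block 1. In its lowest quartile over Nkx2.2-only peaks Gli3 lay at 3.77% of low-block-3 and 7.99% of raised-block-3 peaks, a difference of -4.23 points (-7.30 to -1.26). In the highest quartile the shares were 2.11% and 13.4%, a difference of -11.2 points (-15.6 to -7.60). By quartile of block 2 the difference ran from -2.17 points (-5.34 to 0.66) in the lowest, where the interval includes 0, to -16.3 points (-21.6 to -11.8) in the highest. On chromosome 8 the gap was wider, with Gli3 at 3.19% (1.09 to 8.97) of 94 low-block-3 peaks and 30.8% (23.6 to 39.1) of raised-block-3 peaks. Without chromosomes 8 and Y the shares were 3.72% and 9.85%, a difference of -6.13 points (-7.86 to -4.49).

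The 79 overlaps involved 77 Gli3 peaks, or 4.08% of that list. Centres lay a median of 72 bp apart with the closest 25% at 35 bp or less, and 27 of the 79 within 50 bp. At raised-block-3 peaks the median was 74.5 bp (64 to 90). The strongest in block 1 was chr9:91300759-91301058, with 39.6 units in block 1, 6.80 in block 2 and a Gli3 centre 17 bp away. It was followed by chr12:91467307-91467606, with 39.1 and 10.9 units and a Gli3 centre at 0.296 kb, so that the peaks barely met. At chr3:145309099-145309398 block 1 had 37.1 units and block 2 20.4, and the Gli3 centre was 24 bp away. The peak at chr9:61216385-61216684 had 33.2 and 10.1 units with a Gli3 centre at 22 bp, and it lay in a crowded stretch with Olig2 and Nkx6.1 peaks 1.73 kb away and another Nkx2.2 peak at 766 bp. The fifth, at chr19:25305506-25305805, had 29.8 and 11.8 units with a Gli3 centre at 0.119 kb. The highest of these 5 had 39.6 units in block 1, and the 6 strongest low-block-3 peaks all had over 100 units. As only 3.69% of low-block-3 peaks held Gli3, nothing is read from this.

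In the wider neighbourhood low-block-3 peaks lay nearer to Olig2 and Nkx6.1 peaks, and farther from Gli3 peaks, than raised-block-3 peaks did. Neither class shares a base with a listed Olig2 or Nkx6.1 peak, by the rule, so the comparison concerns listed peaks beyond that distance. An Olig2 centre lay within 10 kb of 20% of low-block-3 peaks (18.4 to 21.75), against 12.4% (10.9 to 14.03) of raised-block-3 peaks and 16.6% of all Nkx2.2-only peaks. The difference was 7.61 points (5.29 to 9.89). A Nkx6.1 centre lay within 10 kb of 9.30% (8.14 to 10.6) of low-block-3 peaks, against 3.36% (2.61 to 4.32) of raised-block-3 peaks and 6.65% of all Nkx2.2-only peaks, a difference of 5.94 points (4.44 to 7.45). A Gli3 centre lay within 10 kb of 7.66% of low-block-3 and 17.7% of raised-block-3 peaks, a difference of -9.997 points (-12.14 to -7.89). Within 50 kb the shares were 14.95% and 29.7%, a difference of -14.75 points (-17.38 to -12.12). For Gli3 the share over all Nkx2.2-only peaks was not computed at these distances, so its values only compare low-block-3 with raised-block-3 peaks.

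Median distances followed the same order. For low-block-3 peaks they were 50.5 kb (46.01 to 55.03) to Olig2, 161.2 kb (148.4 to 176.4) to Nkx6.1 and 443.8 kb (406.6 to 484.8) to Gli3. For raised-block-3 peaks they were 72.9 kb (66.72 to 77.75) to Olig2, 237.9 kb (219.1 to 253.7) to Nkx6.1 and 173.9 kb to Gli3. Within 1 kb, 4.72% of low-block-3 and 2.14% of raised-block-3 peaks had an Olig2 centre, and 1.82% and 0.579% a Nkx6.1 centre. Block 3 coverage and distance to Olig2 did not run strictly together inside the class, since an Olig2 centre lay within 10 kb of 16.4% of peaks below 0.5 units, 22.1% from 0.5 to 1 and 19.5% from 1 to 1.5.

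**Figure D5:**
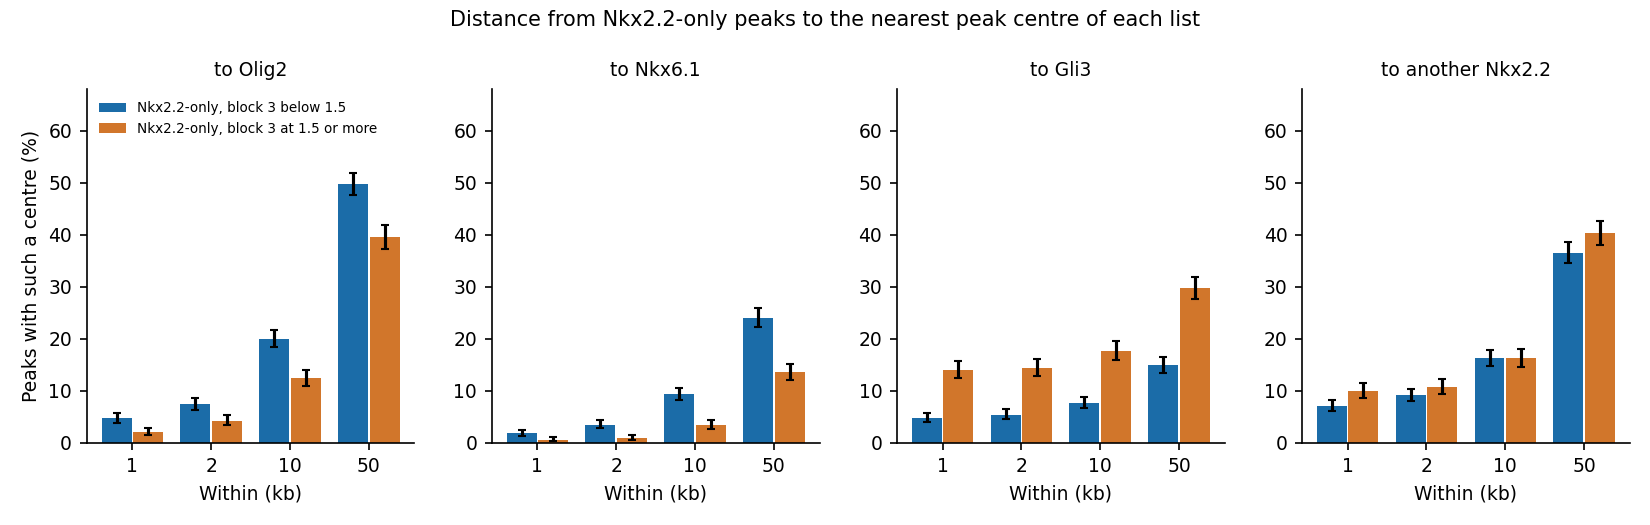
Percentage of low-block-3 (blue) and raised-block-3 (orange) peaks (y axis, with 95% Wilson intervals) that have a peak centre of each list within 1, 2, 10 and 50 kb (x axis). Blue bars are higher for Olig2 and Nkx6.1 and lower for Gli3 at each distance, and level with orange for another Nkx2.2 peak at 10 kb.

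Crowding among Nkx2.2 peaks depended on the distance looked at. Another Nkx2.2 centre lay within 10 kb of 16.3% (14.8 to 17.9) of low-block-3 peaks and of 16.3% (14.6 to 18.1) of raised-block-3 peaks, against 18.4% of all Nkx2.2 peaks. The difference was -0.0093 points (-2.37 to 2.32). Within 1 kb it was -2.81 points (-4.62 to -1.04) and within 50 kb -3.82 points (-6.90 to -0.73), so at those distances fewer low-block-3 peaks had such a neighbour. The nearest Nkx2.2 neighbour within 10 kb was another low-block-3 peak in 45.4% of cases, a peak shared with Nkx6.1 or Olig2 in 34.2% and a raised-block-3 peak in 20.4%. Of the whole Nkx2.2 list these classes made up 38.6%, 30.3% and 31.1%. Close neighbours can share block 3 coverage, so the rule itself ties some of their classes together, and nothing is read from these shares. Joined where they overlapped, the 2140 peaks formed 2112 regions, 28 of them of 2 peaks. Of the windows of 100 kb with any low-block-3 peak, 1748 held 1, 8.64% held 2, 18 held 3 and 1 held 4. The fullest, chr1:6700001-6800000, held no further Nkx2.2 peak but 1 Nkx6.1 peak and 2 Olig2 peaks, and Gli3 had 0 there. The first by position of the windows with 3, chr1:57900001-58000000, held 1 Nkx6.1 and 1 Olig2 peak.

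Chromosomes differed in how their Nkx2.2-only peaks divided. Over all chromosomes 2140 of the 3867 Nkx2.2-only peaks were low-block-3. Low-block-3 peaks made up 65.7% of these on chromosome 12, 65.1% on chromosome 1 and 64.5% on chromosome 13, but 41.4% on chromosome 8, 41.98% on chromosome 17 and 43.4% on chromosome 7. These were the extremes among the autosomes, and the others lay between 47.1% on chromosome 11 and 62.9% on chromosome 3. Chromosome 7 held 5.84% (4.92 to 6.92) of all low-block-3 peaks and 9.44% (8.15 to 10.9) of raised-block-3 peaks, and chromosome 8 held 4.39% (3.603 to 5.346) and 7.70% (6.54 to 9.06). On chromosome X 27 of 28 Nkx2.2-only peaks were low-block-3. There the outermost flank of block 3 had a median of 0.141 units (0.0978 to 0.245) over these 28 peaks, against 0.526 units (0.514 to 0.538) over the 3839 on other chromosomes. The flank of block 2 was lower there too, at 0.219 units (0.0975 to 0.341) against 0.463, and that of block 1 was 0 against 0.232 units. The part of these flanks in the division on chromosome X was not tested. Block 1 at these peaks had a median of 17.8 units (15.1 to 20.03), against 16.8 (16.5 to 17.1) elsewhere. The only Nkx2.2-only peak on chromosome Y was also low-block-3.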

How the data were processed

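Per the submitters' processing notes, the files rest on Bowtie2 2.2.4, HOMER and the build mm9. Their roles, settings, filters, any pooling of replicates and the scaling of coverage are not stated in the labels. The authors deposited peak lists of 3 columns (chromosome, start, end) without a score for each peak. Their coverage tables, per the file headers, hold offsets to 2000 bp in steps of 25 bp in 3 unnamed blocks, treated here as a score of unknown scaling, and values within rounding error of 0 were set to 0. Depth is unknown. Columns of other samples left out numbered 0.

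Table rows were matched to list lines. For 153 low-block-3 peaks with an Nkx2.2 neighbour within 1000 bp, shifted profiles had median correlations of 0.976 to 0.996 over the blocks, and 0.0817 to 0.554 with rows shuffled. Peaks overlapped when they shared at least 1 base. Shares have Wilson, their differences Newcombe and medians order-statistic intervals at 95%, with no p-values. Bounds of a log2 difference of medians combine the opposite bounds of both medians. The log2 scale used a pseudocount of 1. Python 3.11.15, numpy 2.4.6, pandas 2.3.3 and scipy 1.17.1 were used, and distances and intervals were tested on simulated data. The members and lists were chosen with earlier results of these data known.

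Named regions were the 6 peaks highest in the geometric mean of blocks 1 and 2, 3 on each side of the threshold, the 5 highest in block 1 with Gli3, the 3 highest and 3 lowest ratios of block 1 to block 2, and 2 windows of 100 kb. Sequences, motifs and genes, planned for a genome of mm9, were not analysed here.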

Additional observations from a re-analysis of the deposited data

How the results depend on the processing

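Of 49 values recomputed under alternatives, 34 moved by less than their interval (or, for the number of peaks, by less than 1.5 times), and 15 by more. Of the 49, 18 were values of a signed difference, the only ones with a direction to change, and 0 changed it. The log2 differences among them were not recomputed at thresholds of 1.0 or 2.0, or where low meant below 2 times the flank. A changed pseudocount keeps the order of values, so it could hardly change their sign. Lower thresholds pick fewer peaks by construction: a threshold of 1.0 left 1366 peaks, with Gli3 at 1.83%, a block 1 median of 18.5 units and a block 2 median of 4.53, and a threshold of 2.0 gave Gli3 at 5.02% and medians of 17.1 and 3.95 units. Within 100 bp of the centre the medians were 31.9 and 6.12 units, and the log2 differences of low-block-3 minus raised-block-3 peaks were 0.29 in block 1 and 0.33 in block 2. Gli3 lay at 2.196% of low-block-3 peaks with centres within 100 bp and at 4.77% within 1000 bp. The difference in Gli3 share was -5.04 points with centres within 100 bp and -5.02 points where low meant below 2 times the flank, and the cause of that last change was not tested. Counting overlapping peaks once and leaving out chromosome X, both chosen after seeing the data, moved no value beyond its interval. Motif and transcription start alternatives were not run, as no genome of mm9 was used. No paired analysis was possible because there is 1 peak list per factor and the coverage blocks carry no replicate number, and for the same reason no replicate could be left out. Read depth is unknown, so no limit of detection can be given.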
